A study of Mus musculus with 8 samples.

Results

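The genes described here encode the enzymes and carriers that bring pyruvate into the mitochondrion, turn the tricarboxylic acid (TCA) cycle, convert malate to pyruvate and link the cycle to glutamate and aspartate. The set was given as 37 gene symbols, and all 37 were found by symbol among the 43346 rows of the count table. By role it holds 12 pyruvate entry genes, 19 TCA step genes, 3 malic enzymes and 3 glutamine and aspartate link genes. The 8 RNA libraries were made from MC3T3, a pre-osteoblast line of mouse origin whose cells form a bone-like matrix. The 4 LLC-CM libraries came from cells given 25% of medium conditioned for 48 h, without serum, by LLC1, the mouse tumour line derived from Lewis lung carcinoma. The 4 NCM libraries, whose abbreviation the labels leave unexplained, are taken to be those given vehicle, the only other treatment described. Both groups were kept 7 days in a medium that supports mineralization, with ascorbic acid at 100 ug/mL and beta-glycerophosphate at 10 mM. The comparison asks how RNA levels in MC3T3 cells differ between medium conditioned by the carcinoma cells and what is taken to be vehicle. What in the conditioned medium accounts for a difference was not tested. Every fold change below is LLC-CM minus NCM on the log2 scale.

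The pyruvate dehydrogenase complex commits pyruvate to oxidation, and its activity is set by kinases that phosphorylate it and phosphatases that release it. Pyruvate carboxylase and the malic enzymes work around the cycle, the carboxylase by feeding it with oxaloacetate and the malic enzymes by drawing malate out as pyruvate. The NADP-dependent malic enzymes and the NADP-linked isocitrate dehydrogenases also make NADPH, which lipid synthesis and antioxidant systems use. In bone, citrate made by osteoblasts is laid down in the mineral, and differentiating osteoblasts draw on both glycolysis and mitochondrial oxidation.

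Sequence upstream of the start is shown for Me1, Pdk4, Pcx, Idh1 and Idh2, 5 of the members with the largest changes. RefSeq's promoter table (build GRCm38.p6) matched 33 of the 37 members, in 44 windows of 250 bases before an annotated start. Pdp1, Idh3a, Me2 and Sdhc had no entry, and the window of Me3 lies within the gene as deposited and is not shown. Each stretch is printed 5′ to 3′ on the gene's strand and stops where the deposited gene begins. The stretches are chr9:86695954-86696164 (minus strand) for Me1, chr6:5496310-5496528 (minus) for Pdk4, chr19:4510222-4510471 (plus) for Pcx, chr1:65186501-65186729 (minus) for Idh1 and chr7:80115393-80115600 (minus) for Idh2. Capitals mark any of the 9 motifs that were searched on both strands.
Me1: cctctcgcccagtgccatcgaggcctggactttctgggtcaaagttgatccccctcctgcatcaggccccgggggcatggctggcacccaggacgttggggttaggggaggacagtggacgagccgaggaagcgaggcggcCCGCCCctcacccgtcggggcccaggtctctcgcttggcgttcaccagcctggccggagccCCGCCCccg
Pdk4: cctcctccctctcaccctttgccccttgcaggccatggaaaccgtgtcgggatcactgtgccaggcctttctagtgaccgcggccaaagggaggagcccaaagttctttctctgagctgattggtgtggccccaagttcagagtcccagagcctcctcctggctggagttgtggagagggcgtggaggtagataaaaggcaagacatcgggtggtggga
Pcx: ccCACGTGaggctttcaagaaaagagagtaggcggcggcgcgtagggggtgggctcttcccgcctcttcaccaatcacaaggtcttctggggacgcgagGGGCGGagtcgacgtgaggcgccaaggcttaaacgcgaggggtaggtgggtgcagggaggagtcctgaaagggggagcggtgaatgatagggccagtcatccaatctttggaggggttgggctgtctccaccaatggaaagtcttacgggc
Idh1: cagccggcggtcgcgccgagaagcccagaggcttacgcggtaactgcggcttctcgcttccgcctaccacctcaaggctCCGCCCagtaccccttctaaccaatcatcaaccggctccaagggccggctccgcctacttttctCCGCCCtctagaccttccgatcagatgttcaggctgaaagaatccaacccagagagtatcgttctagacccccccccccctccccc
Idh2: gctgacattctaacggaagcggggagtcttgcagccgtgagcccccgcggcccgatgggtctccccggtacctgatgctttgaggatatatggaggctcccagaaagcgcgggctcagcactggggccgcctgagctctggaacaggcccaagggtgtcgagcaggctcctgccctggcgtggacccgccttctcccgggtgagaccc
The capitals in the Me1 and Idh1 stretches are GC boxes (GGGCGG), and Pcx held 1 GC box and 1 E-box (CACGTG). The counts that follow are of whole windows, and those of Me1 and Idh2 also hold GC boxes that reach or lie past the printed end. A GC box stood in 24 of the 44 member windows (54.5%), against 32.7% of the 32851 promoters in the table, and median GC content was 61.4% in member windows, against 52.4% in all. An E-box stood in 5 member windows (11.4%), against 6.02% of promoters. The E-box windows belonged to Pcx, Pdk2 and Ogdh, and overlapping windows of Ogdh share 1 of the sites. A TATA box (TATAAA) stood in 1 member window, against 12.4% of promoters. The core of the antioxidant response element (TGACNNNGC) and the cyclic AMP response element (TGACGTCA) stood in 4 member windows each, against 10.2% and 1.55% of promoters. The NRF1 site (GCGCATGCG) stood in 2, against 1.45%, and both are overlapping windows of Ogdh that share 1 site. The cyclic AMP element windows were 1 of Mdh2 and overlapping windows of Ogdh that share 1 site. STAT (TTCNNNGAA), C/EBP (TTGCNNCAA) and FoxO (GTAAACA) letters stood in 0 member windows, against 7.02%, 1.74% and 3.17% of promoters. Windows of 1 gene overlap, as in Ogdh, no matches of different motifs overlapped in the member windows (0 pairs), and GC content differs between the windows compared. A match describes letters only.

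Each library held 27264212 to 35573953 counts, and the limit that 0 counts allow, taken as 3 counts for counting error only, was at most 0.110 CPM. All 37 members had a count in every library (42 to 10091 counts), and all passed the low-count filter. Together they took 0.377 to 0.403% of the counts in LLC-CM and 0.361 to 0.382% in NCM. The 37 genes of the mitochondrial genome had 0 counts in this table, so only nuclear genes were compared. All 6 osteoblast markers (Runx2, Sp7, Alpl, Col1a1, Ibsp and Bglap) were present, and all 6 fell, with a summed level of 20841 to 26153 CPM in LLC-CM and 29322 to 38445 CPM in NCM. Col1a1 and Ibsp made up most of that sum, with log2 fold changes of -0.49 and -0.45, and the falls were larger for Runx2 (-0.99), Sp7 (-1.20), Alpl (-2.19) and Bglap (-6.35). Chondrocyte markers summed to 79.5 to 104 CPM in LLC-CM and 541 to 796 CPM in NCM. None was at 0 in both groups, but Acan, which was not tested, had 0 counts in LLC-CM. Of 5 tested 1 rose (Sox9) and 3 fell. Col11a2, 1 of the 3, made up most of the NCM sum, at a mean of 430 CPM. Macrophage markers summed to 18.7 to 32.3 CPM in LLC-CM and 11.7 to 17.4 CPM in NCM, with 2 of 4 tested higher and Tyrobp at 0. Lyz2, 1 of the 2 that rose, made up most of that sum, with means of 20.3 CPM in LLC-CM and 11.5 CPM in NCM. Ptprc and Adgre1 had 0 counts in LLC-CM, and Cd68 and Csf1r were not called. Adipocyte markers summed to 28.7 to 39.4 CPM in LLC-CM and 26.3 to 30.1 CPM in NCM, with 2 of 3 tested higher, 1 lower and Cidec at 0. Endothelial (Cdh5 and Kdr at 0), epithelial (Epcam, Krt8 and Krt18 at 0) and skeletal muscle markers (Myog at 0) each summed to under 3 CPM in every library, and of the genes tested Vwf fell and Muc1 and Tnnt3 rose. The endothelial sum was 1.52 to 1.71 CPM in LLC-CM and 2.18 to 2.73 CPM in NCM, the epithelial sum 1.11 to 2.24 CPM in LLC-CM and 0.318 to 0.709 CPM in NCM, and the muscle sum 1.18 to 2.16 CPM in LLC-CM and 0.742 to 1.02 CPM in NCM. The part of these marker shifts in the results below was not tested, and in bulk RNA fewer cells of a type and less RNA per cell cannot be told apart. Nothing in the labels says that the replicates came from separate cultures, and the p-values therefore reflect sample-to-sample spread that may be technical.

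Among the 37 genes the changes were uneven: the malic enzymes, a pyruvate dehydrogenase kinase, an opposing phosphatase and pyruvate carboxylase moved most. Log2 fold changes under 0.25 in size were found in 13 of the 19 TCA step genes (68.4%), against 56.0% of all genes. Among the 12 pyruvate entry genes, 9 (75%) lay under 0.25 in size as well. By edgeR's quasi-likelihood test with Benjamini-Hochberg adjustment over the 14991 genes tested, 17 of 37 members (45.9%) passed 0.05, where 36.9% of all genes tested did. Of these, 11 rose, where 18.8% of all genes rose, and 6 fell, where 18.1% fell. The share called lies near that of all genes, and the share that rose lies above that of all genes. No set test was run, and these shares are read as no property of the set. In 16 members the LLC-CM and NCM libraries did not overlap, 11 with LLC-CM above and 5 below, where 36.3% of all genes did not overlap. A change of at least 2-fold was called in 4 members (Pdp1, Me1, Me2 and Me3), where 8.61% of all genes had one. The median log2 fold change was 0.04 over the members and 0.01 over all genes tested. In 24 members the log2 fold change was under 0.25 in size (64.9%), against 56.0% of all genes. Fold changes are given from the same test throughout.

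**Figure D1:**
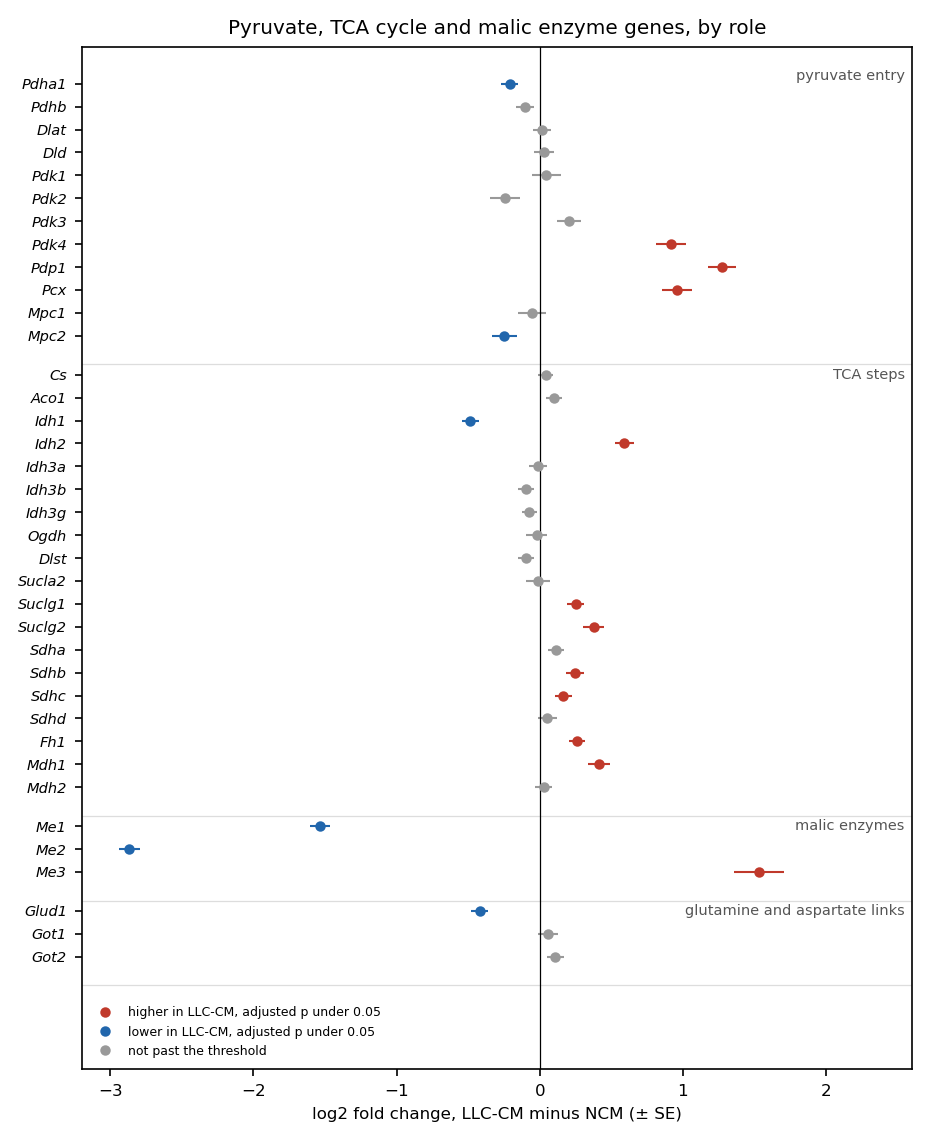
Log2 fold change (LLC-CM minus NCM, ± SE, n = 4 libraries each) of the 37 genes in the order of their roles, with red and blue for genes higher and lower in LLC-CM at an adjusted p under 0.05 and grey for the others. Me2 lies farthest left at -2.87 and Me3 farthest right at 1.53, while 24 of the 37 genes lie within 0.25 of 0.

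The malic enzymes took opposite directions. Me1, the cytosolic NADP-dependent enzyme, and Me2, the mitochondrial enzyme that can use NAD, fell, and Me3, the mitochondrial NADP-dependent enzyme, rose. Me2 (chromosome 18) had 14.5, 13.7, 14.9 and 13.2 CPM in the LLC-CM libraries, against 98.9, 93.3, 114 and 105 CPM in the NCM libraries. The groups lay far apart, and the spread within either was small beside the gap. The log2 fold change of Me2 was -2.87 ± 0.08 (SE), 7.29-fold lower in LLC-CM, with an adjusted p of 8.52e-13, and it ranked as the 141st lowest of the 14991 genes tested.

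Me1 (chr9:86581371-86695953) had 48.8, 55.0, 51.7 and 46.0 CPM in LLC-CM, against 147, 133, 155 and 149 CPM in NCM. Every LLC-CM library was below every NCM library, and the log2 fold change was -1.54 ± 0.07, 2.90-fold lower (adjusted p = 1.70e-10). Me3 (chr7:89632392-89854359) had 5.86, 4.40, 5.01 and 5.02 CPM in LLC-CM, against 1.47, 2.34, 1.48 and 1.73 CPM in NCM. Its groups did not overlap, and the log2 fold change was 1.53 ± 0.18, 2.89-fold higher (adjusted p = 5.68e-06). Me3 had the lowest level per length of all members, 0.945 ± 0.128 TPM in LLC-CM and 0.338 ± 0.0834 TPM in NCM (SD, n = 4 each). An antisense gene shares 3.89% of its exonic length, and a near-identical copy of part of Me1, Gm7329 (210 bases), drew 0.759% as many counts as Me1. Longer copies of Me1, Gm7049 (98.5% identical over 1638 bases) and Gm48795 (98.7% over 1159 bases), had no row among the counted genes. The level of Me1 therefore carries that uncertainty.

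**Figure D2:**
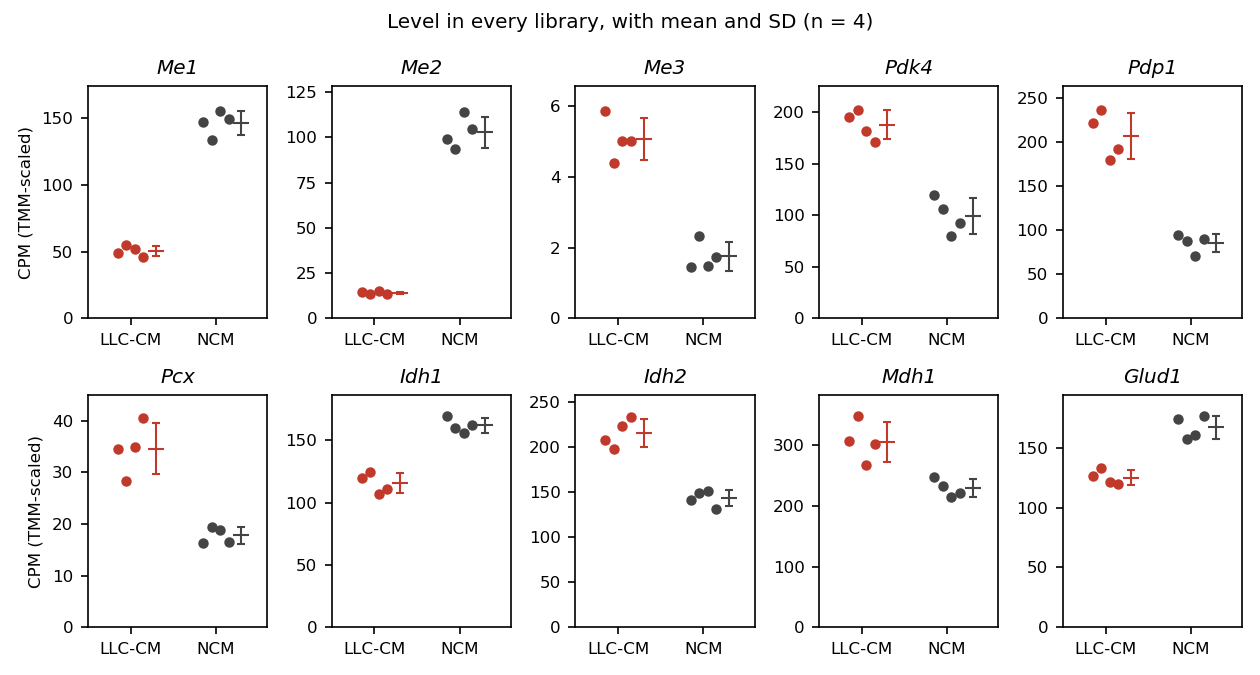
Level in every library, in CPM on TMM-scaled totals from 0, for 10 members that changed, with LLC-CM in red left of NCM in grey and a bar for mean ± SD (n = 4). In each of the 10 panels the LLC-CM and NCM points do not overlap, as for Me2 at 13.2 to 14.9 CPM in LLC-CM and 93.3 to 114 CPM in NCM.

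Summed over the family, malic enzyme RNA was 52.1 ± 2.98 TPM in LLC-CM and 224 ± 14.9 TPM in NCM. Me1 made up 68.3 ± 1.76% of it in LLC-CM and 47.5 ± 0.825% in NCM, and Me2 made up 29.9 ± 1.52% in LLC-CM and 52.3 ± 0.832% in NCM. Me3 made up 1.82 ± 0.268% in LLC-CM and 0.152 ± 0.0463% in NCM. These shares were not tested, and they depend on gene length, since the deposited table gives Me2 a length of 2455 bases and the exons of GENCODE M21 sum to 7252 bases. With the longer length Me1 made up 85.1% in LLC-CM and 72.7% in NCM, and Me2 made up 12.6% in LLC-CM and 27.1% in NCM. Whether Me1 or Me2 was the more abundant in NCM therefore changed with the length used, while the share of Me2 was lower in LLC-CM with either.

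**Figure D3:**
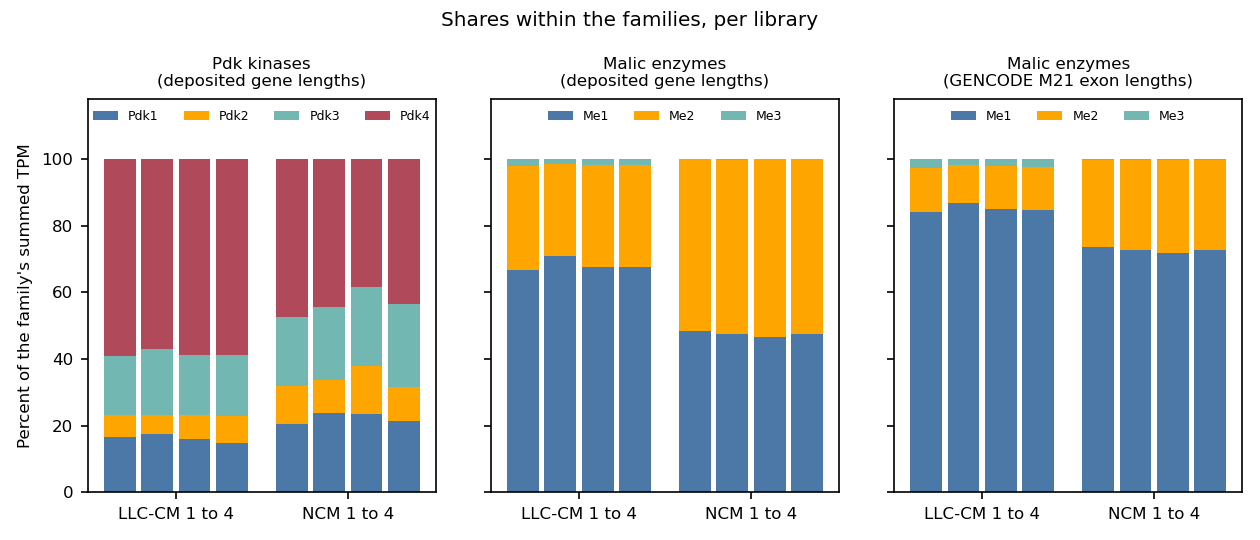
Percent of the summed TPM of each family held by its members in every library (bars, LLC-CM 1 to 4 left of NCM 1 to 4), for the Pdk kinases and for the malic enzymes with both sets of gene lengths. Pdk4 holds 56.9 to 59.0% of Pdk TPM in LLC-CM and 38.4 to 47.5% in NCM, and the share of Me2 is lower in LLC-CM with either length.

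At pyruvate entry 3 of 12 genes rose (Pdk4, Pdp1 and Pcx) and 2 fell (Pdha1 and Mpc2), and those that rose changed by more than those that fell. The share called, 41.7%, was likewise near the 36.9% of all genes. Pdp1 (chr4:11958184-11966452), a phosphatase that reactivates pyruvate dehydrogenase, had 221, 235, 179 and 191 CPM in LLC-CM, against 94.2, 87.2, 70.6 and 89.8 CPM in NCM. The groups did not overlap, and Pdp1 was 2.42-fold higher, with a log2 fold change of 1.27 ± 0.10 (adjusted p = 1.93e-07). Pdk4 (chr6:5483351-5496309), a kinase that inactivates the same complex, had 196, 203, 182 and 171 CPM in LLC-CM, against 119.7, 106, 79.7 and 92.6 CPM in NCM. Each LLC-CM library was above each NCM library, and the log2 fold change was 0.92 ± 0.10 (adjusted p = 9.96e-06). Thus Pdk4 and Pdp1, with opposite actions on the complex, were both higher in LLC-CM. Pdp2, another phosphatase of the complex outside the 37 genes, had a log2 fold change of 0.17 ± 0.15 (adjusted p = 0.400). It did not pass, and was added after its values were seen. Per length, Pdp1 stood to Pdk4 at a ratio of 0.766 to 0.905 in LLC-CM and 0.613 to 0.755 in NCM. That ratio is 1 of 7 that were formed, a description with no test.

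Pcx (chr19:4510472-4621752), which carboxylates pyruvate to oxaloacetate, had 34.6, 28.3, 34.9 and 40.4 CPM in LLC-CM, against 16.3, 19.4, 18.9 and 16.6 CPM in NCM. The groups did not overlap, and the log2 fold change was 0.96 ± 0.10 (adjusted p = 2.85e-06). Pdha1 (chrX:160122209-160138413) encodes the catalytic alpha subunit of the complex and was among the members with the highest level per length. It had 274, 296, 259.8 and 266 CPM in LLC-CM, against 325, 323, 309.9 and 309 CPM in NCM, without overlap. Its log2 fold change was small, -0.21 ± 0.06 (adjusted p = 0.0117), and 16.2% of its exonic length is shared with Map3k15 on the other strand, whose reads cannot be told apart in this unstranded library.

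The other subunits of the complex did not pass the test, with log2 fold changes of -0.10 for Pdhb (its beta subunit), 0.01 for Dlat (the acetyl carrier) and 0.03 for Dld (the dehydrogenase it shares with the oxoglutarate complex). Of the remaining kinases, Pdk1 had a log2 fold change of 0.05 ± 0.10 (adjusted p = 0.764), Pdk2 one of -0.24 ± 0.11 (adjusted p = 0.0914) and Pdk3 one of 0.21 ± 0.08 (adjusted p = 0.0725). Pdk4 was the most abundant of the 4 kinases per length in both groups, at 58.4 ± 1.03% of their summed TPM in LLC-CM and 43.4 ± 3.80% in NCM. The sum itself was 249 ± 14.3 TPM in LLC-CM and 182 ± 16.6 TPM in NCM. Of the pyruvate carrier of the inner membrane, Mpc2 fell, with 28.3, 30.4, 26.3 and 23.7 CPM in LLC-CM, against 31.2, 29.5, 32.8 and 35.5 CPM in NCM. Its groups overlapped, and the log2 fold change was -0.25 ± 0.09 (adjusted p = 0.0366). That call was lost without LLC-CM replicate 3 (adjusted p = 0.0604) or 4 (0.0983) and without NCM replicate 3 (0.0540) or 4 (0.0954). Mpc1 had a log2 fold change of -0.05 ± 0.10, is shared over 23.1% of its exonic length with an antisense gene, and has a copy, Mpc1-ps, that is identical over 261 bases and drew 31.6% as many counts, so its level is uncertain.

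Of the 19 TCA step genes 7 rose and 1 fell, none by 2-fold, and the changes largest in size were those of Idh2, Idh1 and Mdh1. The share called, 42.1%, lay near the 36.9% of all genes tested. By direction, 18.8% of all genes rose and 18.1% fell, so rises were more frequent and falls less frequent here. That imbalance was not tested. Idh2, the mitochondrial enzyme (chr7:80094846-80115392), had 208, 198, 223 and 234 CPM in LLC-CM, against 142, 149.5, 151 and 132 CPM in NCM. Idh1, the cytosolic and peroxisomal enzyme (chr1:65158616-65186500), had 119, 124, 107 and 111 CPM in LLC-CM, against 169, 159.8, 156 and 162 CPM in NCM. Neither gene overlapped between the groups, and they moved in opposite directions. The log2 fold change was 0.59 ± 0.07 for Idh2 (adjusted p = 4.35e-06) and -0.49 ± 0.06 for Idh1 (adjusted p = 1.11e-05). Per length, Idh2 stood to Idh1 at a ratio of 1.70 to 2.26 in the LLC-CM libraries and 0.871 to 1.04 in the NCM libraries, a pair chosen after its values were seen and given with no test.

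Mdh1, the cytosolic malate dehydrogenase of the malate-aspartate shuttle (chr11:21556787-21572367), was the member with the highest level per length in both groups, 322 ± 22.8 TPM in LLC-CM and 250.3 ± 16.2 TPM in NCM. It had 306, 347, 266 and 302 CPM in LLC-CM, against 247, 233, 215 and 220.4 CPM in NCM. The groups did not overlap, and Mdh1 rose by 0.41 ± 0.08 on the log2 scale (adjusted p = 0.000574). Its mitochondrial counterpart Mdh2 had a log2 fold change of 0.03 ± 0.06 (adjusted p = 0.755).

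The other TCA genes that rose encode enzymes of the steps after oxoglutarate. Suclg2, the GTP-forming subunit of succinyl-CoA synthetase, rose by 0.38 ± 0.07 (adjusted p = 0.000693), with 90.2 to 110.0 CPM in LLC-CM and 69.3 to 81.9 CPM in NCM. Suclg1, the subunit common to both forms of that enzyme, rose by 0.25 ± 0.06 (adjusted p = 0.00387), while Sucla2, the ATP-forming subunit, had a log2 fold change of -0.01 ± 0.09. A near-identical copy of Suclg2, Gm15163, drew 4.57% as many counts. Fh1, the fumarase, rose by 0.26 ± 0.06 (adjusted p = 0.00236), with 97.6 to 108 CPM in LLC-CM and 79.3 to 88.4 CPM in NCM. These ranges did not overlap, and neither did those of Suclg1.

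Of succinate dehydrogenase, the enzyme that also serves the respiratory chain, 2 of 4 subunits rose, where 18.8% of all genes tested rose. With 4 subunits, this share is read as no property of the complex. Sdhb, its iron-sulphur subunit, rose by 0.25 ± 0.06 (adjusted p = 0.00738), with 53.6 to 59.2 CPM in LLC-CM and 43.6 to 50.4 CPM in NCM. Sdhc, a membrane anchor, rose by 0.17 ± 0.06 (adjusted p = 0.0354), with 109.9 to 125 CPM in LLC-CM and 103 to 108 CPM in NCM. Neither gene overlapped between groups. The call of Sdhc was lost without LLC-CM replicate 1 (adjusted p = 0.122) or 2 (0.0784), without NCM replicate 1 (0.0938), 2 (0.104) or 3 (0.0705), and with no low-count filter (0.0632). Sdha, the flavin-bearing subunit, and Sdhd, the other anchor, had log2 fold changes of 0.11 ± 0.06 and 0.05 ± 0.07 and did not pass.

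Citrate synthase, cytosolic aconitase, the NAD-linked isocitrate dehydrogenase and the oxoglutarate dehydrogenase complex had no member past the threshold. All 3 subunits of the NAD-linked isocitrate dehydrogenase (Idh3a, Idh3b and Idh3g) had log2 fold changes between -0.10 and -0.01. Ogdh and Dlst, of the oxoglutarate dehydrogenase complex, had -0.02 ± 0.07 and -0.10 ± 0.05. Cs, the citrate synthase that opens the cycle, had 223, 218, 219.5 and 219 CPM in LLC-CM and 212, 212, 209 and 221 CPM in NCM, with a log2 fold change of 0.04 ± 0.05. Its groups overlapped and lay close together. Aco1, the cytosolic aconitase that also serves as an iron-responsive RNA-binding protein, had a log2 fold change of 0.10 ± 0.06 (adjusted p = 0.191). Over the uncalled members of the cycle the log2 fold change largest in size was 0.11, that of Sdha.

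Of the genes that link the cycle to amino acids, Glud1 fell. Glud1 (chr14:34310727-34345144), which turns glutamate into oxoglutarate, had 126, 133, 121 and 119 CPM in LLC-CM, against 174, 157, 160.2 and 177 CPM in NCM. The groups did not overlap, and the log2 fold change was -0.42 ± 0.06 (adjusted p = 4.73e-05). Copies of parts of Glud1, Glud-ps (97.6% identical over 656 bases) and Gm43444 (97.6% over 287 bases), had no row among the counted genes. The level of Glud1 carries that uncertainty. Got2, the mitochondrial aspartate aminotransferase, had 83.0, 75.6, 86.2 and 84.3 CPM in LLC-CM, against 77.6, 77.5, 78.9 and 71.6 CPM in NCM. These overlapped, with a log2 fold change of 0.11 ± 0.06 (adjusted p = 0.179), and a near-identical copy, Got2-ps1, drew 4.57% as many counts. Got1, the cytosolic form, had a log2 fold change of 0.06 ± 0.07 (adjusted p = 0.552).

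**Figure D4:**
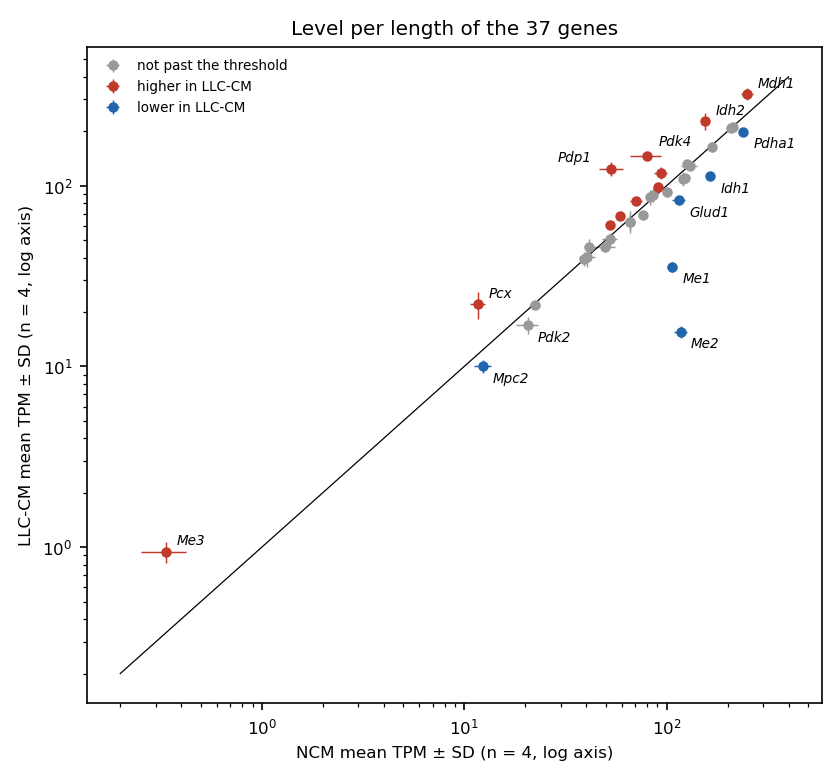
Mean level per length (TPM ± SD, n = 4 each, log axes) of the 37 genes in LLC-CM (vertical axis) and NCM (horizontal axis), with the line of equal levels and colours for genes higher (red), lower (blue) or not past the threshold (grey). Me1 and Me2 lie well below the line and Pdp1, Pdk4, Pcx and Me3 above it, while Mdh1 is highest on both axes.

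In order of level per length among the 37 members, Pdk4 ranked 7 in LLC-CM and 20 in NCM, and Pdp1 ranked 10 in LLC-CM and 26 in NCM. Me2 ranked 35 in LLC-CM and 12 in NCM, and Me1 ranked 31 in LLC-CM and 14 in NCM. The order rests on the lengths of the deposited table, and for 9 members, Me2 among them, the exons of GENCODE M21 sum to over 1.5 times that length. By compartment, 1 of the 5 cytosolic members rose (Mdh1) and 2 fell (Idh1 and Me1). Of the 32 mitochondrial members 10 rose and 4 fell, where 18.8% of all genes rose and 18.1% fell. The share called among mitochondrial members, 43.8%, was near the 36.9% of all genes, and the compartments were not tested against each other.

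Around these genes, 40 others of the same pathways were listed, of which 33 passed the low-count filter, 10 rose and 6 fell (48.5% of those tested, where 36.9% of all genes passed). The 4 with the highest log2 fold changes were Ldhb, Ogdhl, Glul and Acss2. Ldhb, a lactate dehydrogenase subunit, had 4.01 ± 0.339 CPM in LLC-CM and 1.10 ± 0.439 CPM in NCM (SD, n = 4 each), a log2 fold change of 1.86 ± 0.24 (adjusted p = 2.03e-05). Ogdhl, a relative of Ogdh, rose by 0.60, Glul, the glutamine synthetase, by 0.55, and Acss2, which activates acetate in cytosol and nucleus, by 0.43. Among those with the lowest were Slc25a13, Pck2 and Pdpr. Slc25a13, a mitochondrial aspartate-glutamate carrier, had 33.2 ± 2.07 CPM in LLC-CM and 64.3 ± 1.36 CPM in NCM, a log2 fold change of -0.95 ± 0.06 (adjusted p = 1.25e-08). Pck2, the mitochondrial phosphoenolpyruvate carboxykinase, had 35.2 ± 3.33 CPM in LLC-CM and 66.2 ± 8.53 CPM in NCM, a log2 fold change of -0.91 ± 0.09 (adjusted p = 1.54e-06). Pdpr, a regulatory subunit of the pyruvate dehydrogenase phosphatase, had a log2 fold change of -0.25.

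Chosen after their values were seen, Slc25a12, the other aspartate-glutamate carrier, rose by 0.41 ± 0.07 (adjusted p = 0.000308), and Slc25a11, the oxoglutarate-malate carrier, rose by 0.33 ± 0.06 (adjusted p = 0.000727). Of the aspartate-glutamate carriers, 1 rose and the other fell. Likewise chosen afterwards, Ldha, a lactate dehydrogenase subunit, and Acly, the cytosolic ATP-citrate lyase, had log2 fold changes of 0.07 and -0.04 and did not pass. The 7 listed genes below the filter were Slc16a3, Slc16a7, Acss1, Slc25a18, Slc25a21, Pck1 and Acod1.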

How the data were processed

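RNA of 8 MC3T3 libraries, 4 LLC-CM and 4 NCM, was made from 200 ng of RNA with poly(A) selection and 12 PCR cycles, per the labels' protocols, with a kit that does not mark strand. The authors deposited whole-number read counts per gene with a length and position for each. STAR, featureCounts, CASAVA and the mm10 build appear in the submitters' processing notes, without versions. Columns were matched to samples by name.

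A read was present in 22913 of 43346 rows, and filterByExpr kept 14991. LLC-CM was compared with NCM in R 4.3.3 with the quasi-likelihood F test of edgeR 4.0.16 (TMM factors, robust estimation, no covariate), adjusted by Benjamini-Hochberg over all genes tested at a threshold of 0.05. The script was tested on simulated counts. CPM used TMM-scaled totals, and TPM used the deposited lengths. Libraries of a group differed by 7.07 to 37.4 in chi-square per degree of freedom over genes with at least 20 counts, so none was a repeat deposit. Copies were sought with blastn 2.17.0 (at least 90% identity over 200 bases). Of the 37 members, 28 have the same coordinates in GENCODE M21.

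The members, lists, motifs and rules were chosen with earlier results of these data known. Members had their CPM given in every library if called with a log2 fold change of at least 0.5 in size, if among the 2 with the smallest adjusted p of their role, or if highest in TPM in it. Of the companion genes, the 4 highest and 4 lowest called log2 fold changes at a mean of at least 1 CPM were chosen by rule, and not all of these are reported here. The values by library of Mpc2 and Cs were added after they were seen. Alternatives were other scaling factors, other filters, limma-voom (limma 3.58.1), DESeq2 1.42.0, a block for the replicate number, odd or even number as a term, an adjusted p of 0.01, annotation lengths and leaving out each library. Sdhaf3, Sdhaf4, Acod1 and the marker Adgre1 were matched by gene ID.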

Additional observations from a re-analysis of the deposited data

Results flagged for a closer look

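Over the 74 groups of 4 libraries (37 members in LLC-CM and in NCM), a library stood apart from the others of its group in 2, where chance gives about 1 in 20. Idh3g had 90.4 CPM in NCM replicate 4, against 97.9 to 99.2 CPM in the other NCM libraries. Sdhd had 90.2 CPM in NCM replicate 4, against 96.7 to 97.5 CPM in the other NCM libraries. Neither gene was called in the comparison, and both values came from the same library.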

How the results depend on the processing

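Under 18 alternative settings the number of members called ran from 14 to 17 and that of all genes from 3946 to 5779. Of the 17 called members 14 kept their call in all 18 settings, none changed sign, and the 3 others were Pdha1, Mpc2 and Sdhc. At an adjusted p of 0.01 the called pyruvate entry genes numbered 3 and the called companion genes 10. Same-numbered libraries deviated together with r of -0.04 to 0.20, over 0.1 in 1 of 4 pairs, so the numbers were not taken to pair the samples. With the replicate number as a block 5473 genes and 15 members were called, without Mpc2 (adjusted p = 0.0521) and Sdhc (adjusted p = 0.0564). Of uncalled members, 8 changed sign in some setting, and Pdhb, Pdk2 and Pdk3 were called in some. With upper-quartile factors Idh3a had a log2 fold change of 0.00103 and Sucla2 one of 0.00241. Leaving out 1 library at a time, log2 fold changes ran from -0.0134 to 0.0255 for Dlat, -0.0291 to 0.0505 for Dld, -0.0518 to 0.117 for Pdk1, -0.0424 to 0.0230 for Idh3a, -0.0830 to 0.0304 for Ogdh, -0.0904 to 0.0442 for Sucla2, -0.00117 to 0.0930 for Sdhd and -0.00744 to 0.0544 for Mdh2. With annotation exon lengths the share of Me2 in malic enzyme TPM was 12.6% in LLC-CM and 27.1% in NCM. Me3 had the lowest count of any member in a library (42) and the largest SE (0.18), and how far depth sets that SE was not tested.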
